A study of Rattus norvegicus with 10 samples.

Results

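Voltage-gated calcium channels open when a nerve cell is depolarised and let calcium in, which triggers transmitter release at nerve endings and shapes firing at the cell body. Each channel is built on a large pore-forming alpha1 subunit, which sets its type, and most types also carry a beta subunit inside the membrane and an alpha2delta subunit on the outer face that helps the channel reach the surface. In dorsal root ganglia, the clusters of sensory nerve cell bodies beside the spinal cord, these channels carry pain signals to the spinal cord, and drugs against chronic pain act on several of them. Described here are 9 genes of this family, 6 for pore-forming subunits and 3 for alpha2delta subunits, chosen by name among the 30560 genes of the count table: Cacna1a, Cacna1b, Cacna1c, Cacna1d, Cacna1e, Cacna1h, Cacna2d1, Cacna2d2 and Cacna2d3. All 9 had 1 row each, and all 9 had enough counts to be tested, as had 15186 genes in total.

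RNA was sequenced from L6 dorsal root ganglia of Sprague Dawley rats aged 7 to 8 weeks, in 5 libraries from rats given phosphate-buffered saline (PBS) and 5 from rats given 0.75 mg of SCN9A_2544. SCN9A_2544 is a divalent small interfering RNA against Scn9a, the gene of the sodium channel Nav1.7, and the series asks how specific it is. All rats, controls included, had a lumbar intrathecal catheter implanted under isoflurane, were dosed through it 5 days later and received meloxicam, an anti-inflammatory analgesic. Every sample carries a timepoint of 14 days in the labels, which do not say from which event it counts. The controls received no small interfering RNA, so the comparison cannot tell the effect of this sequence apart from that of any such molecule. Whether each of the separate samples came from its own animal is not stated, and the p-values here cover only the variation among these 10 libraries, which can be partly technical.

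Library totals ran from 11832376 to 15420006 estimated counts. Scn9a stood at 132 to 257 CPM (counts scaled to the TMM-adjusted library total) in the PBS libraries and at 44.6 to 103 CPM in the SCN9A_2544 libraries, without overlap, and the mean log2 CPM fell by 1.05 (two-sided exact permutation test, p = 0.00794, the smallest that 5 against 5 allows). The libraries differed widely in neuron content. The mean of 20 pan-neuronal genes, all measured, ran from 7.49 to 8.55 log2 CPM in PBS and from 7.26 to 8.48 in SCN9A_2544 libraries, and PBS replicates 3 and 5 and SCN9A_2544 replicate 3 were the lowest. A score of Schwann cell and myelin genes, averaged the same way, was highest in these same 3 libraries, and these libraries recur in the results on nearly every subunit. In bulk tissue, fewer neurons and less RNA per neuron cannot be told apart. Central glia were near absent, with 1 of 8 markers passing the count filter.

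The upstream sequences of 3 members are shown because these genes stand at the ends of the patterns below: Cacna1b had the smallest p for its slope on neuron content, Cacna2d1 had the largest difference between groups, and Cacna1c was the 1 member that ran against neuron content. Each window holds 250 bases before and 50 after an annotated start, read 5′ to 3′, from RefSeq on the build GRCr8. This is a later build than the mRatBN7.2 named for the counts. GC boxes (GGGCGG on either strand) are in capitals.
Cacna1b promoter, chr3:27944236-27944535, minus strand: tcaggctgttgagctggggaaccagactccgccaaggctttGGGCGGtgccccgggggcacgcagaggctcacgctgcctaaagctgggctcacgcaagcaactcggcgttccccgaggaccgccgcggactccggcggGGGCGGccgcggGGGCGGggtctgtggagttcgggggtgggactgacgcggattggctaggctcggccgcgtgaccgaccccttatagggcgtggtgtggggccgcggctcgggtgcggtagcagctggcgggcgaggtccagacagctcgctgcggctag
Cacna2d1 promoter, chr4:20330098-20330397, minus strand: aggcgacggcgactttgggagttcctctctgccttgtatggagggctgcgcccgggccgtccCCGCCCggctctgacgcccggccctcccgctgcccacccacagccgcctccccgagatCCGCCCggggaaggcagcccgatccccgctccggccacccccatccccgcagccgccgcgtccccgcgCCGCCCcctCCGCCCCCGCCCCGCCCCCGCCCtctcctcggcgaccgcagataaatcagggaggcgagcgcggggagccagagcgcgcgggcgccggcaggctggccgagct
Cacna1c promoter, chr4:154051699-154051998, minus strand: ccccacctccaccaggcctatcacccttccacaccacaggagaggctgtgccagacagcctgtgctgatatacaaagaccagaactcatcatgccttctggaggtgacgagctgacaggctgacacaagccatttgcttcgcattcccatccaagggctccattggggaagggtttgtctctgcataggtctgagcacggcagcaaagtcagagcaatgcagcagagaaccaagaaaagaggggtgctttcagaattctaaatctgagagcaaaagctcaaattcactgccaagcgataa

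The Cacna1b window held 34 CpG dinucleotides and 3 GC boxes. The Cacna2d1 window, the first of 3 overlapping windows listed for that gene, held 41 CpG dinucleotides and 7 GC boxes. The Cacna1c window held 4 CpG dinucleotides and 0 GC boxes, with a GC content of 51.7%, equal to the median of all 33469 windows of the table. Over those windows the median was 7 CpG dinucleotides, and 33.1% held a GC box. RefSeq windows matched 8 of the 9 genes by symbol, all but Cacna1h. Of the remaining matched genes, Cacna1a, Cacna1d, Cacna2d2 and Cacna2d3 had 41, 66, 44 and 42 CpG dinucleotides and each held a GC box, while Cacna1e had 10 and none. So 6 of the 8 matched genes had windows with more CpG dinucleotides than at least 93.18% of all windows. The exceptions were Cacna1c, with more than 30.75% of all windows, and Cacna1e, with more than 58.51%. Both strands were also searched for the cyclic AMP response element TGACGTCA, present in 1.83% of all windows, for the AP-1 site TGANTCA, present in 7.33%, and for the TATA box TATAAA, present in 14.2%. The parts of the RE1 silencer element, TTCAGCACC on its left and GGACAGC on its right, were present in 0.356% and 6.58% of all windows. The windows of these 8 genes held none of these motifs. A letter match or its lack in a window is a description of the sequence and says nothing of what binds there.

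None of the 9 subunit genes differed between SCN9A_2544 and PBS ganglia past the threshold. The test was edgeR's quasi-likelihood test with Benjamini-Hochberg adjustment over all 15186 genes, which called 0% of all genes (0 of 15186), so a count of 0 of 9 members matched the background. The same fit did not call the targeted gene Scn9a either, at a log2 fold change of -1.03 (edgeR adjusted p = 0.963). A count of 0 here therefore does not show that the members were unchanged. At an unadjusted p of 0.05 edgeR named 0 of the 9, beside 642 of all 15186 genes. DESeq2 called 0, with 0.0791% of all genes called, and named 0 unadjusted, beside 815 of all genes. Limma voom with library weights called 0, with 0.00659% of all genes called, and named 4 unadjusted, beside 3175 of all 15186 genes. All 9 fitted log2 fold changes lay above 0, against 53.4% of all genes, and their median was 0.31 against 0.02 over all genes. The median of the pan-neuronal genes was 0.07. Most members also went with neuron content, as described below, so the 9 signs are not separate results. The log2 fold changes of Cacna1c and Cacna2d3 were so close to 0 that their sign turned with the scaling of the libraries. The groups overlapped for all 9 members, while 0.665% of all genes had groups that did not overlap.

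The presynaptic channel genes are described first. Cacna1b (ENSRNOG00000004560) encodes Cav2.2, the pore of the N-type channel, which drives transmitter release from the central endings of pain-sensing neurons and is the target of the analgesic peptide ziconotide. It stood at 144, 122, 62.7, 172 and 86.2 CPM in PBS replicates 1 to 5 and at 184, 167, 65.0, 146 and 202 CPM in SCN9A_2544 replicates 1 to 5. The low values were those of the 3 neuron-poor libraries, in both groups, and the groups overlapped over nearly their whole range. The means were 118 ± 43.9 and 153 ± 53.2 CPM (SD, n = 5 each), and the log2 fold change was 0.38 (SE 0.32, 95% interval -0.32 to 1.08, edgeR adjusted p = 0.963). As folds, the interval ran from 0.801 to 2.11.

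Cacna1a (ENSRNOG00000052707) encodes Cav2.1, the pore of the P/Q-type channel, the other main trigger of release at synapses. Its level was 91.7, 89.9, 43.3, 119 and 76.1 CPM in PBS replicates 1 to 5, and 155, 129, 85.2, 79.1 and 116 CPM in SCN9A_2544 replicates 1 to 5. SCN9A_2544 replicates 1 and 2 were above every PBS library, and the other 3 were within the PBS range. The log2 fold change was 0.43 (SE 0.26, 95% interval -0.14 to 1.00, edgeR adjusted p = 0.963). SCN9A_2544 replicate 3, the library with the fewest neuronal transcripts, still held 85.2 CPM of Cacna1a, about the PBS median of 89.9, whereas its Cacna1b value was among the lowest. The ratio of Cacna1b to Cacna1a counts ran from 1.13 to 1.58 in PBS and from 0.763 to 1.85 in SCN9A_2544 libraries, with similar means of 1.39 ± 0.17 and 1.37 ± 0.44 (SD, n = 5 each).

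Cacna1e (ENSRNOG00000002863) encodes Cav2.3, the R-type pore, and was barely measured. It had 9, 30, 8, 20 and 15 counts in PBS replicates 1 to 5 and 31, 32, 3, 28 and 22 in SCN9A_2544 replicates 1 to 5, or 198 in all. At this depth the interval of its log2 fold change of 0.42 was wide, -0.74 to 1.59 (SE 0.53, edgeR adjusted p = 0.975), which as folds is 0.597 to 3.01.

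The L-type channel genes came next. Cacna1c (ENSRNOG00000007090) encodes Cav1.2, the L-type pore of heart and smooth muscle that neurons also use. It stood at 27.4, 51.5, 37.8, 36.7 and 65.3 CPM in PBS replicates 1 to 5 and at 40.6, 36.1, 59.4, 32.8 and 52.3 CPM in SCN9A_2544 replicates 1 to 5. The highest values of the 2 groups were PBS replicate 5 and SCN9A_2544 replicate 3, both neuron-poor, while the neuron-poor PBS replicate 3 was at the PBS median. The means were 43.8 ± 14.8 and 44.2 ± 11.2 CPM (SD, n = 5 each), and the log2 difference was 0.02 (SE 0.24, 95% interval -0.51 to 0.54, edgeR adjusted p = 0.997).

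Cacna1d (ENSRNOG00000013147) encodes Cav1.3, an L-type pore that opens at less depolarised potentials. Its level was 11.5, 9.31, 6.46, 14.2 and 10.2 CPM in PBS and 17.6, 14.7, 6.33, 8.00 and 13.3 CPM in SCN9A_2544 replicates 1 to 5. SCN9A_2544 libraries held both the lowest and the highest value of the 10. The log2 fold change was 0.21 (SE 0.29, 95% interval -0.43 to 0.85, edgeR adjusted p = 0.975).

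Cacna1h (ENSRNOG00000033893) encodes Cav3.2, the T-type pore that opens near the resting potential and is prominent in touch-sensitive and some pain-sensing neurons. It stood at 55.4, 58.5, 49.2, 89.2 and 44.7 CPM in PBS and at 82.7, 64.8, 53.7, 55.3 and 78.9 CPM in SCN9A_2544 replicates 1 to 5. PBS replicate 4 was the highest of all 10 libraries and PBS replicate 5 the lowest. Cacna1h was the steadiest of the 9 members, with a highest library only 1.99 times the lowest, against 8.18 times for Cacna2d1 and 11.1 times for the scarce Cacna1e. The log2 fold change was 0.18 (SE 0.20, 95% interval -0.27 to 0.62, edgeR adjusted p = 0.975).

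**Figure D1:**
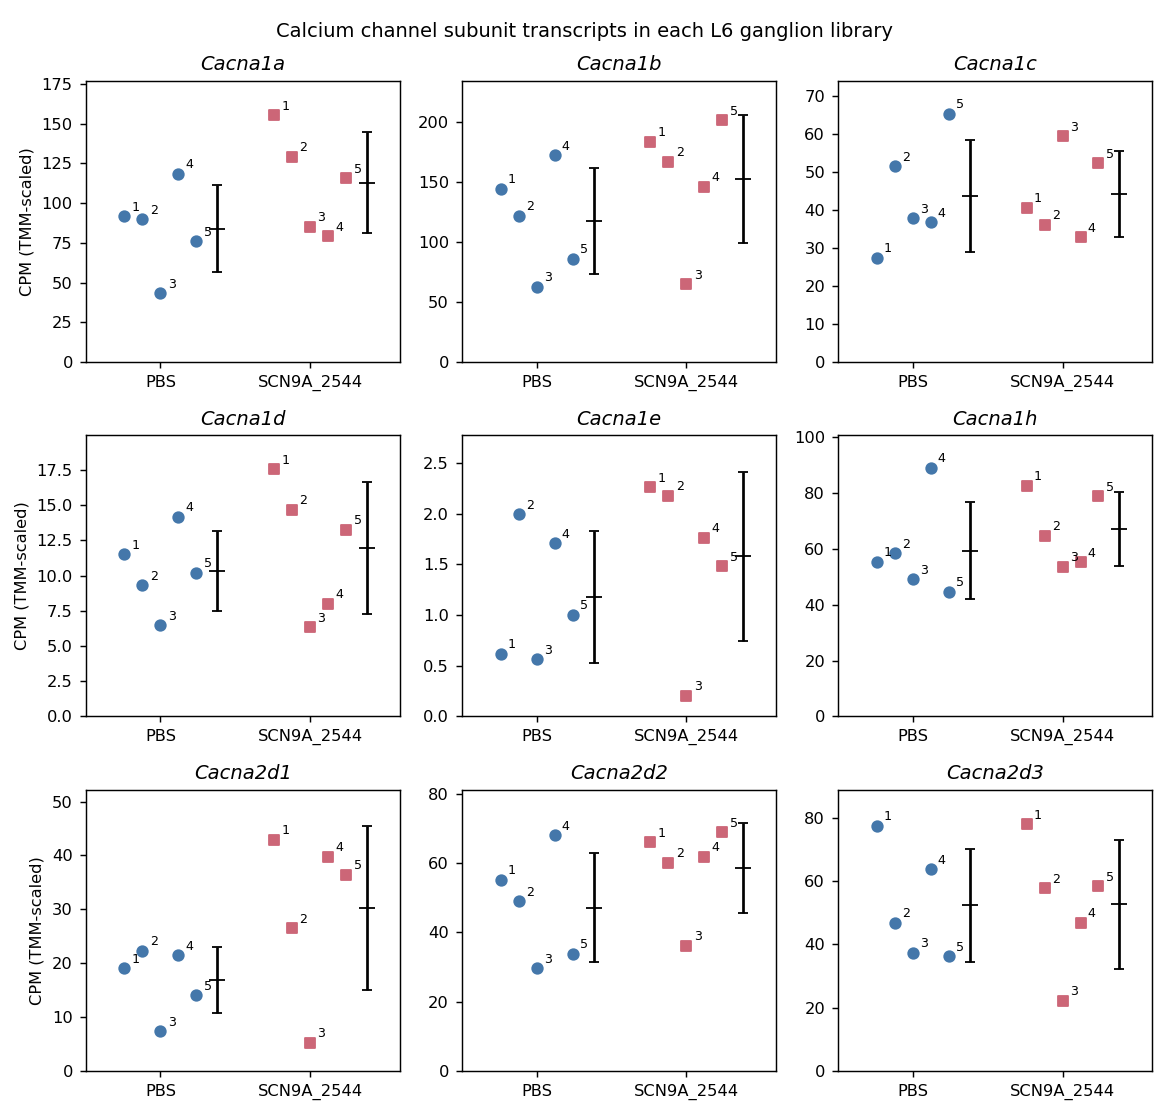
TMM-scaled CPM (y axis, linear from 0, a separate scale for each gene) of the 9 subunit genes in PBS libraries (circles) and SCN9A_2544 libraries (squares), each point labelled with its replicate number; the bar to the right of each group is the mean with the SD. Cacna2d1 has 4 SCN9A_2544 libraries between 26.5 and 42.9 CPM, above all PBS libraries, and the remaining one at 5.24 CPM, below them.

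The alpha2delta genes follow. Cacna2d1 (ENSRNOG00000033531) encodes alpha2delta-1, which binds gabapentin and pregabalin and is known to rise in dorsal root ganglia after nerve injury. It stood at 19.1, 22.3, 7.38, 21.4 and 14.1 CPM in PBS replicates 1 to 5 and at 42.9, 26.5, 5.24, 39.8 and 36.4 CPM in SCN9A_2544 replicates 1 to 5. SCN9A_2544 replicates 1, 2, 4 and 5 were above every PBS library, and SCN9A_2544 replicate 3 was below every PBS library. The means were 16.9 ± 6.18 and 30.2 ± 15.2 CPM (SD, n = 5 each), and the log2 fold change was 0.84 (SE 0.46, 95% interval -0.16 to 1.84, edgeR adjusted p = 0.963), the largest of the 9 members. Without PBS replicates 3 and 5 and SCN9A_2544 replicate 3, a choice made after their values were seen, the log2 fold change was 0.77 (edgeR adjusted p = 0.683).

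A score of the nerve injury response of sensory neurons was also higher in the SCN9A_2544 group, including replicate 3, where Cacna2d1 was lowest. Of its 18 genes, 14 were tested, and none of them with a row was at 0 in all libraries. Their mean ran from 3.16 to 3.48 log2 CPM in PBS and from 3.65 to 5.51 in SCN9A_2544 libraries, with summed levels of 530 to 748 CPM and 752 to 1846 CPM. Within the groups, the slope of Cacna2d1 on this mean was 0.91 (SE 0.49, 95% interval -0.16 to 1.98, edgeR adjusted p = 0.984), where a slope of 1 would mean equal log2 changes. Leaving out SCN9A_2544 replicate 3 gave 0.28, leaving out SCN9A_2544 replicate 4 gave 2.34, and 0 of the 9 members were called for this slope (0 unadjusted; 0.00659% of all genes called). The mean of 10 macrophage genes was also higher in the SCN9A_2544 group, with summed levels of 103 to 166 CPM and 186 to 347 CPM. The mean of 8 satellite glia genes ran from 5.81 to 6.29 log2 CPM in PBS and from 6.48 to 6.66 in SCN9A_2544 libraries. Their summed levels, 3037 to 4657 CPM and 4331 to 5215 CPM, overlapped. The part of these 3 groups of genes in the Cacna2d1 values was not tested.

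Cacna2d2 (ENSRNOG00000015835) encodes alpha2delta-2, the other gabapentin-binding subunit, found in large sensory neurons among other cells. It stood at 55.1, 49.0, 29.7, 68.0 and 33.8 CPM in PBS and at 66.0, 60.1, 36.1, 61.8 and 68.8 CPM in SCN9A_2544 replicates 1 to 5. The 3 neuron-poor libraries were again the lowest 3, and 4 SCN9A_2544 libraries sat close together at 60.1 to 68.8 CPM. The log2 fold change was 0.31 (SE 0.24, 95% interval -0.21 to 0.84, edgeR adjusted p = 0.963).

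Cacna2d3 (ENSRNOG00000031287) encodes alpha2delta-3, a subunit linked to heat pain sensing in flies and mice. It stood at 77.6, 46.8, 37.4, 63.9 and 36.3 CPM in PBS and at 78.0, 57.7, 22.3, 46.9 and 58.5 CPM in SCN9A_2544 replicates 1 to 5. The means were nearly equal, 52.4 ± 17.9 and 52.7 ± 20.4 CPM (SD, n = 5 each). The log2 fold change was 0.01 (SE 0.31, 95% interval -0.67 to 0.68, edgeR adjusted p = 0.999).

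Ratios of counts within a library compare the alpha2delta genes without their lengths entering the comparison between libraries. Cacna2d1 counts were 0.329 ± 0.111 of those of Cacna2d3 in PBS and 0.543 ± 0.224 in SCN9A_2544 libraries (SD, n = 5 each). In PBS this ratio ran from 0.197 to 0.476, and SCN9A_2544 replicates 1, 4 and 5 exceeded that range at 0.550, 0.848 and 0.623. Replicate 2, at 0.458, and replicate 3, at 0.235, lay inside it. The ratio of Cacna2d1 to Cacna2d2 ran from 0.248 to 0.455 in PBS, with SCN9A_2544 replicates 1, 4 and 5 above that range at 0.650, 0.644 and 0.529, replicate 2 inside it at 0.440 and replicate 3 below it at 0.145. The ratio of Cacna2d2 to Cacna2d3 was 0.909 ± 0.155 and 1.20 ± 0.29 in the same groups, highest in SCN9A_2544 replicate 3 at 1.62. These ratios were looked at after the values were seen, and they are given without a test.

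**Figure D2:**
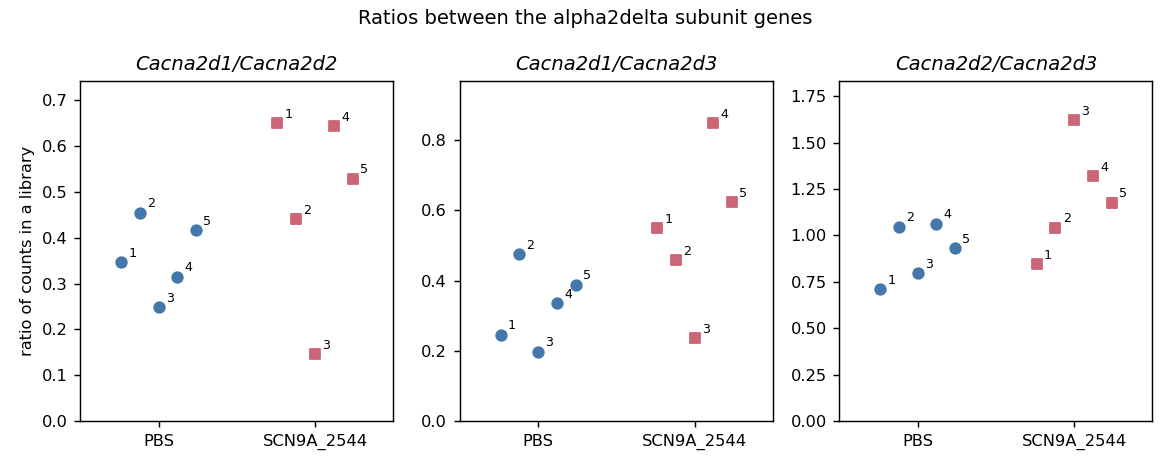
Ratio of counts between pairs of alpha2delta subunit genes in each library (y axes, linear from 0), for PBS (circles) and SCN9A_2544 (squares), labelled with replicate numbers. For Cacna2d1 over Cacna2d3, 3 SCN9A_2544 libraries lie above the PBS maximum of 0.476 and 2 lie within the PBS range.

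When neuron content was added to the fit through the pan-neuronal mean, the intervals narrowed for all 9 members, and again 0 of 9 passed the edgeR threshold, while 0.00659% of all genes were called (1 gene, Scn9a, lower). Above 0 were 8 of the 9 members, against 52.0% of all genes, and the members' median was 0.14. At an unadjusted p of 0.05, 3 members stood above 0, against 1445 of all 15186 genes in either direction. They were Cacna1a at 0.40 (95% interval 0.02 to 0.78, edgeR adjusted p = 0.519), Cacna1b at 0.26 (0.04 to 0.47, adjusted p = 0.501) and Cacna2d2 at 0.26 (0.05 to 0.48, adjusted p = 0.50). The Cacna2d1 value became 0.51 (-0.07 to 1.09, adjusted p = 0.549). It ranged from 0.32 without PBS replicate 1 to 0.85 without SCN9A_2544 replicate 3. Cacna2d3 stood at -0.14 (-0.41 to 0.13, adjusted p = 0.700), below 0 with each library left out in turn. Scn9a itself was at -1.13 (SE 0.12, adjusted p = 0.0141), outside the intervals of all 9 calcium channel genes.

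**Figure D3:**
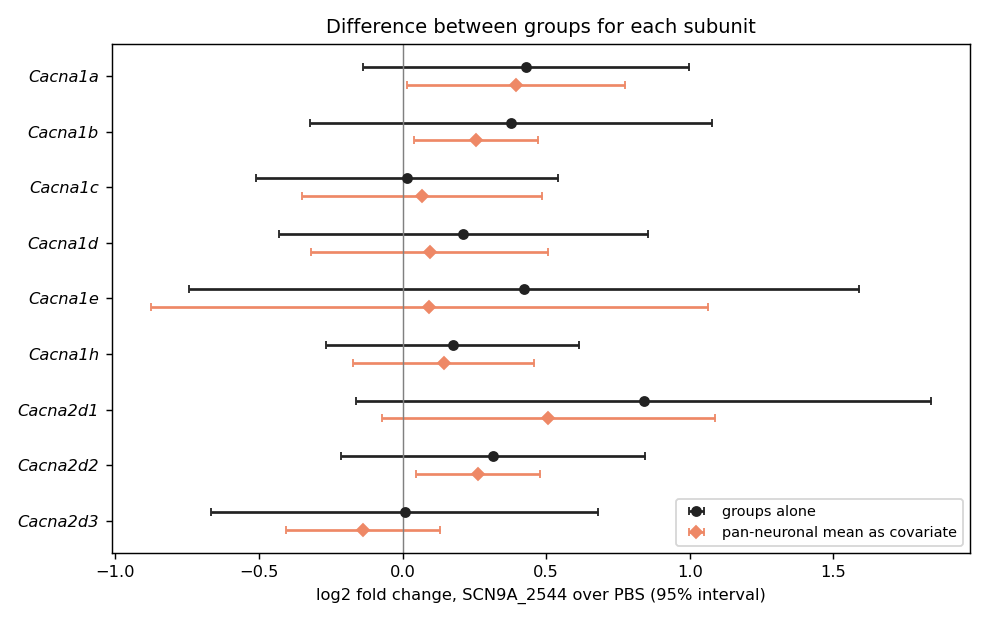
Log2 fold change of each subunit gene, SCN9A_2544 over PBS (x axis), with 95% intervals from edgeR, for the groups alone (black circles) and with the pan-neuronal mean as covariate (orange diamonds). With the groups alone every interval includes 0, and with the covariate those of Cacna1a, Cacna1b and Cacna2d2 lie just above 0 without passing adjustment over all genes.

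The larger variation was between libraries of the same group. How each subunit went with neuron content was measured as the slope of its log2 level on the pan-neuronal mean, with the group in the fit, so that a slope of 1 means that a transcript changes in step with the pan-neuronal genes. Of the 9 members, 8 were called with a positive slope and 0 with a negative one by edgeR, while among all genes 42.6% were called, 22.1% positive and 20.5% negative. The members' median slope was 0.88, against -0.01 over all genes and 1.00 over the 20 pan-neuronal genes that make up the mean. Without the 3 neuron-poor libraries 0 of 9 were called, in a fit over the 7 others, and without SCN9A_2544 replicate 3 alone 5 of 9 were. The share of all genes called was not counted in these smaller fits, so these counts cannot be set against a background. Without the 3 libraries, the slopes of Cacna1a, Cacna1b, Cacna1d, Cacna1h, Cacna2d2 and Cacna2d3 were 1.14, 0.88, 1.76, 0.83, 0.58 and 1.71. Those of Cacna1c, Cacna1e and Cacna2d1 were -1.33, -1.36 and -0.45. The edgeR adjusted p-values of these 9 slopes ran from 0.154 for Cacna2d3 to 0.75 for Cacna2d1.

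Cacna1b had the slope with the smallest p, 1.22 (SE 0.12, 95% interval 0.96 to 1.47, edgeR adjusted p = 2.41e-05), and kept it between 1.17 and 1.28 with any 1 library left out. Cacna2d3 had 1.12 (0.81 to 1.44, adjusted p = 0.000104) and Cacna2d2 had 0.85 (0.60 to 1.09, adjusted p = 0.000141). Cacna1d had 0.88 (0.40 to 1.36, adjusted p = 0.00684) and Cacna1a had 0.70 (0.27 to 1.12, adjusted p = 0.0133). Cacna1d was no longer called without SCN9A_2544 replicate 3 (adjusted p = 0.068), nor Cacna1a without PBS replicate 3 (adjusted p = 0.0505). The intervals of all 5 include 1. Cacna1h had the shallowest positive slope, 0.49 (0.13 to 0.84, adjusted p = 0.029), and the upper bound lies below the interval of Cacna1b, though the difference between the slopes was not tested. The Cacna1h slope was no longer called without any one of PBS replicates 3, 4 and 5 and SCN9A_2544 replicates 1 and 3, with adjusted p-values from 0.0558 to 0.077, or with limma voom (adjusted p = 0.0701).

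Cacna2d1 had the steepest slope, 1.72 (0.97 to 2.47, adjusted p = 0.00192), but it fell to 1.03 without SCN9A_2544 replicate 3 and was -0.45 without the 3 neuron-poor libraries (adjusted p = 0.75). Without PBS replicate 3 alone it was 1.66 (adjusted p = 0.00942). Cacna1e, with few counts, had 1.57 (0.35 to 2.79, adjusted p = 0.0397), and it was no longer called without PBS replicate 3 or 4 or any of SCN9A_2544 replicates 1, 2, 3 and 5.

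Cacna1c was the exception. Its slope on the pan-neuronal mean was -0.52 (SE 0.21, 95% interval -0.99 to -0.06, edgeR adjusted p = 0.067). DESeq2 called it (adjusted p = 0.0427), while edgeR and limma voom (adjusted p = 0.149) did not. With 1 library left out, edgeR called it only without PBS replicate 3 (adjusted p = 0.0219) or SCN9A_2544 replicate 5 (adjusted p = 0.0408). On the Schwann cell and myelin mean, Cacna1c had a slope of 0.31 (0.08 to 0.54, edgeR adjusted p = 0.0332), which passed, and was the 1 member with a positive slope there. It was no longer called without any one of PBS replicates 1, 4 and 5 and SCN9A_2544 replicates 2 and 3, with slopes from 0.24 to 0.33. Of the other 8 members, 7 were called with a negative slope on the Schwann cell mean, from -0.25 for Cacna1h to -0.72 for Cacna2d1, and Cacna1e was not called. Among all genes 39.3% were called, 19.1% positive and 20.1% negative.

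Smooth muscle of blood vessels is a well-known site of Cav1.2, and 8 of 8 smooth muscle genes listed were tested. Their summed level ran from 87.1 to 287 CPM in PBS and from 117 to 184 CPM in SCN9A_2544 libraries. The slope of Cacna1c on their mean was 0.68 (0.26 to 1.09, edgeR adjusted p = 0.174), which edgeR did not call, in a fit where edgeR called 0% of all genes (0 of 15186). With 1 library left out, this slope ran from 0.56 without PBS replicate 5 to 1.04 without PBS replicate 1. DESeq2 and limma voom with library weights did call it, with adjusted p-values of 0.0294 and 0.013. The share of all genes that DESeq2 and limma voom called for this slope was not counted, so their calls cannot be set against a background. By edgeR 0 of 9 members passed this test, with 1 at an unadjusted p under 0.05, as were 2670 of all 15186 genes. The part of smooth muscle or Schwann cells in the Cacna1c values was not tested.

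**Figure D4:**
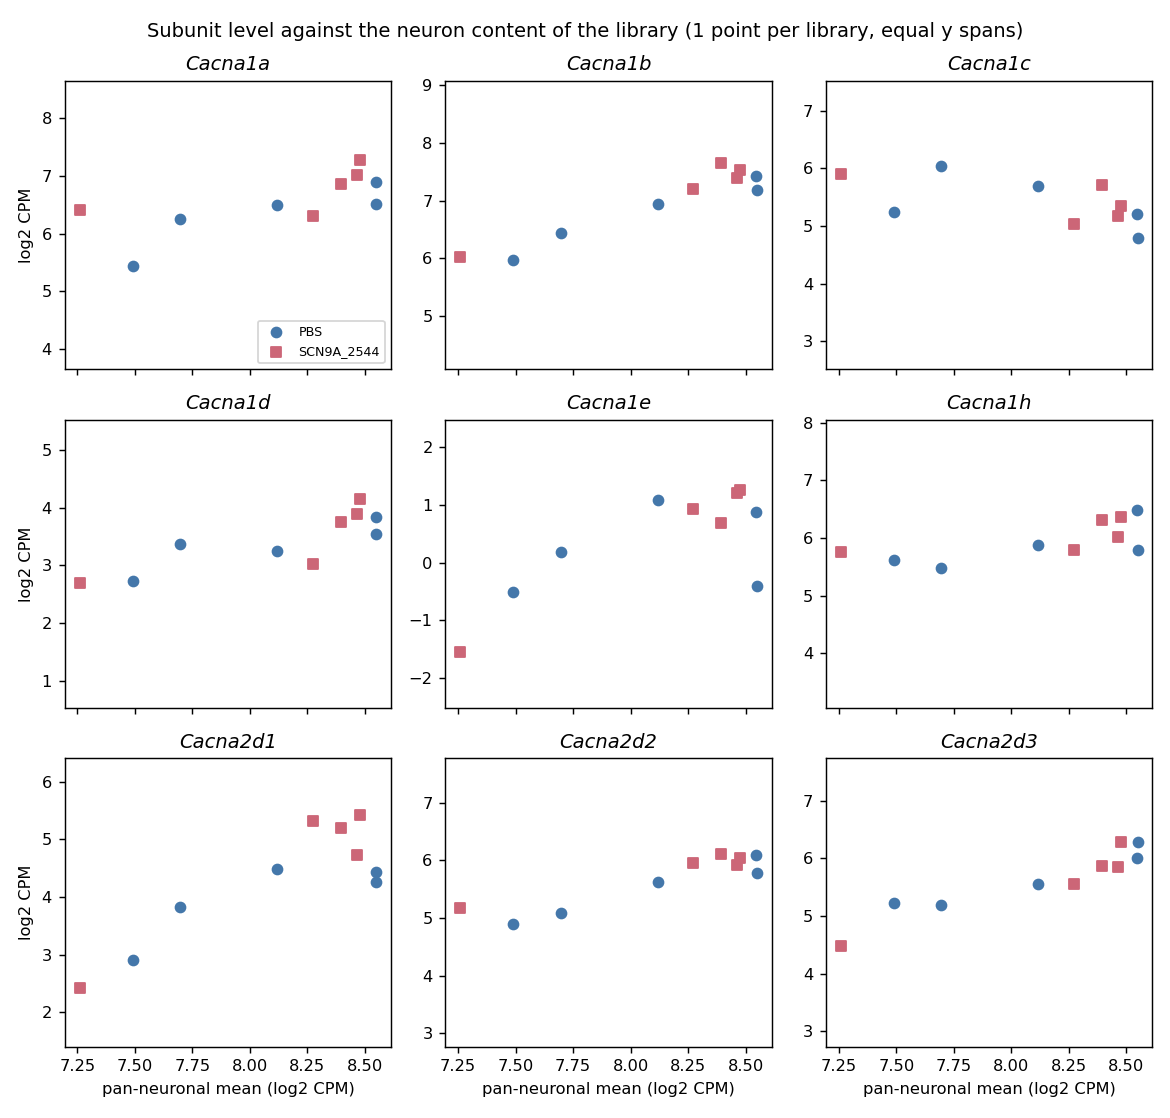
Log2 CPM of each subunit gene (y axes, all of equal span) against the pan-neuronal mean of the library (x axis, log2 CPM), 1 point per library, circles for PBS and squares for SCN9A_2544. Over all libraries the fitted slope is above 0 for every gene but Cacna1c. The 3 leftmost points, at 7.26 to 7.70 on the x axis, are the neuron-poor libraries. Without these 3 libraries, the slopes of Cacna1e and Cacna2d1 were -1.36 and -0.45.

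**Figure D5:**
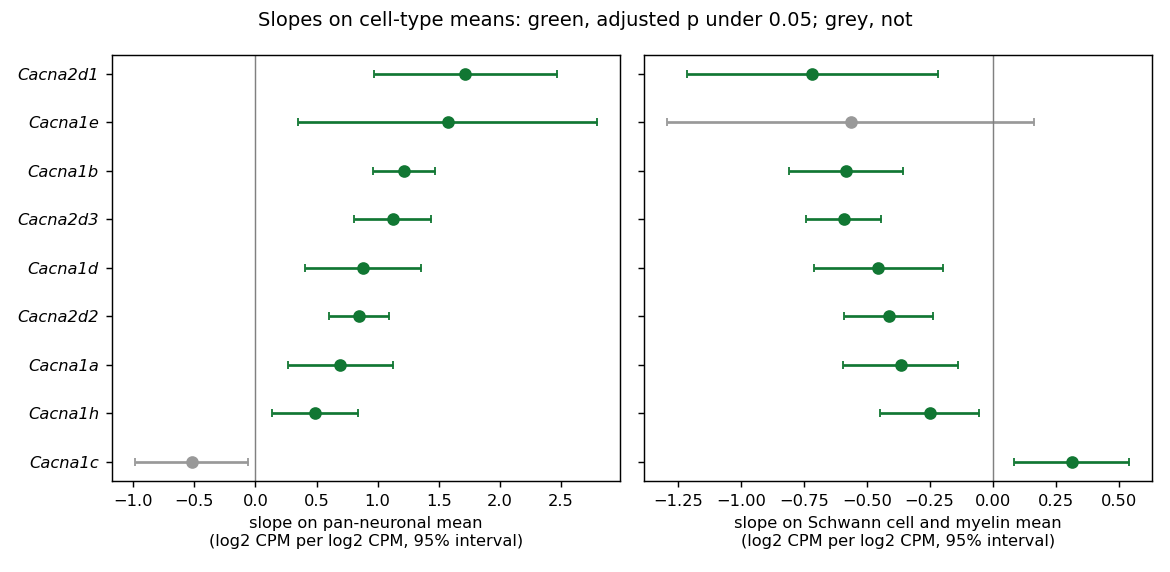
Slopes of the 9 subunit genes on the pan-neuronal mean (left) and on the Schwann cell and myelin mean (right), with 95% intervals from edgeR, ordered by the left panel; green marks an adjusted p under 0.05 and grey the rest. Cacna1c lies on the opposite side of 0 from the other 8 in both panels.

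The genes whose log2 CPM went most closely with each member over the 10 libraries, were ranked by Pearson's r, as a description and with no test. For Cacna1b they were Tmem63c and Ubqln2 (both 0.99), for Cacna2d2 Syn2 and Coro2a (both 0.99), and for Cacna2d3 Lrfn5 and Stmn3 (both 0.98). Syn2 encodes a synaptic vesicle protein and Stmn3 a neuronal microtubule regulator that is also in the pan-neuronal list. For Cacna1a they were Pacs1 (0.98) and Wnk2 (0.97), for Cacna1d Lancl1 and Asb13 (both 0.97), for Cacna1h Exoc7 and Ess2 (both 0.96), and for Cacna2d1 Greb1l and Rrm2b (both 0.96). Those of Cacna1c were Gabpb2 (0.96) and Sdk2 (0.95), whose own slopes on the pan-neuronal mean were -0.82 and -0.82. Those of Cacna1e were Bean1 (0.94) and Kank1 (0.92). The 10 points share the differences in neuron content. The slopes of these genes on the pan-neuronal mean ran, apart from those of Gabpb2 and Sdk2, from 0.31 for Exoc7 to 1.40 for Coro2a.

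Of 17 further channel subunit genes listed, all had a row and 12 were tested. Between the groups edgeR called 0 higher and 0 lower (0 unadjusted, beside 642 of all 15186 genes). The median log2 fold change of the 12 was 0.19, against 0.02 over all genes. Among the beta subunits, which bind the pore inside the cell, Cacnb3 stood at 219 ± 44.6 CPM in PBS and 221 ± 41.6 in SCN9A_2544 libraries (SD, n = 5 each), a log2 fold change of 0.02 (95% interval -0.39 to 0.43). Cacnb1, Cacnb2 and Cacnb4 had log2 fold changes of 0.39, -0.22 and 0.19. The T-type pore genes Cacna1g and Cacna1i had 0.19 and 0.41. The genes of the gamma family, several of which encode partners of AMPA-type glutamate receptors, ran from -0.10 for Cacng2 and -0.01 for Cacng4 through 0.09 for Cacng3, 0.20 for Cacng7 and 0.33 for Cacng5 to 0.53 for Cacng8. Cacna1f, Cacna1s, Cacna2d4, Cacng1 and Cacng6 had too few counts, at most 16 in any library.

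On the pan-neuronal mean, 9 of these 12 genes were called with a positive slope and 1 with a negative one. Among all genes, 22.1% were called positive and 20.5% negative. The positive ones of the 12 included Cacng7 at 1.20 and Cacnb3 at 0.58, and the negative one was Cacng4 at -0.56 (edgeR adjusted p = 0.0462). Cacna1g and Cacnb2 were not called, with slopes of 0.13 and 0.00.

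Of 26 listed regulators and partners of these channels, 24 gene names were tested in 25 rows. Between the groups edgeR called 0 higher and 0 lower (1 unadjusted, beside 642 of all 15186 genes). The 4 regulators with the smallest p were Stac2, Wwp1, Rrad and Rem1. Stac2, an adaptor that binds L-type channels, was at 2.40, 1.40, 1.69, 1.45 and 1.07 CPM in PBS and 13.6, 4.28, 14.7, 39.0 and 11.5 CPM in SCN9A_2544 replicates 1 to 5, without overlap. Its log2 fold change was 3.37 (SE 0.51, edgeR adjusted p = 0.412), and 3.37 again with the pan-neuronal mean as covariate (adjusted p = 0.0972). Its slope on the pan-neuronal mean was 0.08 (adjusted p = 0.921). Rrad and Rem1, small GTPases that hold back calcium channels, had log2 fold changes of -0.73 and -0.73 (edgeR adjusted p = 0.963 for both), and Wwp1, a ubiquitin ligase that acts on Cav3.2, had -0.33 (adjusted p = 0.963).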

How the data were processed

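Members, gene lists and tests were chosen with earlier results of these data known. The authors deposited estimated counts per gene, in 1 column per library, and 11.6% to 12.4% of values per library were not whole. STAR (version 2.7.10a), DESeq2 and the build mRatBN7.2 appear in the submitters' processing notes, without roles. Which program and annotation gave the counts, and whether strand was used, is not stated there. Libraries were poly(A)-selected and read as pairs of 150 bases, per the labels' protocols.

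The design had assumed raw counts. Values were rounded, filtered with filterByExpr (minimum count 10, minimum total 15; 15186 of 30560 genes kept), scaled by TMM and tested with edgeR 4.0.16 in R 4.3.3 (quasi-likelihood test, Benjamini-Hochberg adjustment over all genes, threshold 0.05). Standard errors are the log2 fold change divided by the square root of F. Log2 CPM used a prior count of 2. Covariates are list means per library, centred. DESeq2 1.42.0 and limma 3.58.1 ran on the same filtered genes. The common biological coefficient of variation was 30.0%. Simulated data for the group comparison (15186 genes) held 50 genes each at true changes of 1.5-fold, 2-fold and 3-fold. In them, edgeR found 4%, 50% and 82% of these and made 11 false calls. Whether edgeR would find the same shares in the real libraries was not tested. In the real libraries it called 0 of 15186 genes, and Scn9a was at -1.03 (edgeR adjusted p = 0.963). Counts of all 45 library pairs differed beyond sampling noise (mean chi-square per gene 7.45 to 205). No transcript length was at hand, so levels are not compared between genes. Genes named are all 9 members, the further subunits, the 4 regulators with the smallest p, Scn9a, and the 2 genes most like each member; the regulators named under other observations were chosen after their values were seen. The family is one of paralogs, and how reads shared between them were handled before deposit is not stated.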

Additional observations from a re-analysis of the deposited data

Results flagged for a closer look

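Among 52 groups of 5 libraries checked, a single library stood far from the other 4 in 2, where chance flags about 1 in 20. So 2 in 52 is no more than that chance rate. Both were SCN9A_2544 replicate 3, the library with the lowest pan-neuronal mean. Its Cacna2d2 level was 36.1 CPM, with the nearest of the others at 60.1 and the highest at 68.8 CPM. Its Cacnb1 level was 26.6 CPM, with the nearest at 50.3 and the highest at 57.6 CPM.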

How the results depend on the processing

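The count of 0 members called between the groups, with or without the pan-neuronal covariate, held under every alternative run, and so did 0 for the slope on the nerve injury mean. The count over all genes became 12 with DESeq2, 1 with limma voom, 1 with either composition covariate, 1 without the 3 neuron-poor libraries, and 0 to 1 with 1 library left out. The count of further subunits and regulators became 1 with DESeq2 and 0 to 1 with 1 library left out (Stac2). The count of 8 for the slope on the pan-neuronal mean became 9 with DESeq2, 7 without a filter and 6 with limma voom. It was 0 without the 3 neuron-poor libraries and 5 to 8 with 1 library left out. The count of 8 for the slope on the Schwann cell mean became 5 with limma voom, 0 without those 3 libraries and 4 to 8 with 1 library left out. The count of 0 for the slope on the smooth muscle mean became 1 with DESeq2 and 1 with limma voom. For the slopes, the share of all genes called was not counted in these alternative fits. These slope counts can therefore not be set against a background. The cause of these changes was not tested.

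Signs turned for 2 small log2 fold changes. Cacna1c was at -0.010 with DESeq2's size factors and -0.010 with its test, -0.019 with upper-quartile scaling, -0.021 without a filter, -0.24 with limma voom, and from -0.15 to 0.18 with 1 library left out. Cacna2d3 was at -0.0078, -0.0079, -0.025 and -0.018 under the first 4 of these, -0.14 with the pan-neuronal and -0.21 with the Schwann cell covariate, -0.083 without the 3 neuron-poor libraries, and from -0.18 to 0.19 with 1 library left out. With the pan-neuronal covariate and 1 library left out, Cacna1c ran from -0.042 to 0.16, Cacna1d from -0.0079 to 0.21 and Cacna1e from -0.34 to 0.49. Without the 3 neuron-poor libraries, the slopes of Cacna1e were -1.36 on the pan-neuronal and 0.41 on the Schwann cell mean, and those of Cacna2d1 -0.45 and 0.037.

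The groups share replicate numbers, but same-numbered libraries correlated in their deviations at -0.01 to 0.57, and 2 of 5 matched their own number best, so the numbers are not taken to pair the samples. With the replicate block 0 members were called between the groups, Cacna2d3 was at -0.036, and 0 were called for the slopes on the pan-neuronal and Schwann cell means, in fits with few degrees of freedom left.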

Other observations

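Regulators of calcium channels also went with neuron content. Of 25 tested rows, 15 were called by edgeR with a positive slope on the pan-neuronal mean and 4 with a negative one, where 22.1% of all genes were called positive and 20.5% negative. The positive ones included, also chosen after their values were seen, Unc13a (1.16), Rims2 (1.00) and Rims1 (0.94), which organise the sites of transmitter release, and Stac (0.88), a relative of Stac2. The 4 negative ones, named after their values were seen, were Thbs2 (-2.58), Thbs4 (-1.76), Rem1 (-1.21) and Rrad (-1.15). Thrombospondins are secreted proteins known to bind alpha2delta-1. Cachd1, which encodes a protein resembling the alpha2delta subunits, had a slope of 0.18 and was not called (adjusted p = 0.557).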
